A study of Mus musculus with 2 samples.

Results

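The mouse mitochondrial genome is annotated with 37 genes, and these were taken as every transcript model whose gene name starts with mt-. In 2 long-read libraries of adrenal gland, 20 of the 37 genes had at least 1 read, 16 in replicate 1, 17 in replicate 2 and 13 in both, out of 18580 annotated genes with reads. To them were added the models classed as Antisense on the mitochondrial chromosome, of which there were 7 in replicate 1 and 14 in replicate 2, among 107755 and 137106 transcript models in all. The genes took 900 of 927914 reads on annotated genes in replicate 1 (0.0970%, exact 95% binomial interval 0.0908 to 0.104%) and 1966 of 1303420 in replicate 2 (0.151%, 0.144 to 0.158%).

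Total RNA of whole adrenal gland from male B6CASTF1/J mice, a hybrid of the C57BL/6J and CAST/EiJ strains, aged 10 days, was read as long reads with ERCC and SIRV spike-ins added. The 2 libraries are replicates of 1 group, with no treatment, mutation or control group. The labels state 1 µg of starting RNA for replicate 2, assign a single donor to both libraries and number the animal of replicate 2 in more than one way, so separate animals cannot be taken as given. All comparisons below are therefore between 2 libraries, and with 1 library on each side the p-values measure counting error of reads only, not the spread between animals or between library preparations.

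Mitochondrial DNA is transcribed from both strands as long precursors. Most protein and rRNA genes lie between tRNA genes, and cutting out the tRNAs frees the mRNAs and rRNAs, after which most mRNAs receive a short poly(A) tail. The proteins are core subunits of respiratory complexes I, III, IV and V, all others being encoded in the nucleus, and in the adrenal cortex the same organelle holds the enzymes for the first and last steps of glucocorticoid synthesis.

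Stretches of the mitochondrial genes, from their ends, overlaps and nuclear copies, are shown first. They are the annotated transcripts of GENCODE M21 on mm10, printed 5′ to 3′. Of the 13 protein genes, 3 end on an incomplete stop codon, a lone T that only a poly(A) tail turns into TAA. The last 30 bases of these 3 are given with that T in capitals, beside mt-Co1, whose complete stop codon is in capitals.
mt-Cytb (chrM:15259-15288, plus strand): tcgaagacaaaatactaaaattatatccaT
mt-Co3 (chrM:9361-9390, plus strand): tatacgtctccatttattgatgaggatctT
mt-Nd4 (chrM:11515-11544, plus strand): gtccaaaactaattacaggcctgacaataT
mt-Co1 (chrM:6843-6872, plus strand): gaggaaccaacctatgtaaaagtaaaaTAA

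Some neighbouring protein genes share bases, and each read is counted for 1 gene only. The pairs mt-Atp8 with mt-Atp6 and mt-Nd4l with mt-Nd4 are shown, because the first gene of each had no reads. The end of mt-Atp8 holds 43 bases of mt-Atp6, and the end of mt-Nd4l holds 7 bases of mt-Nd4. The shared bases are in capitals.
mt-Atp8 end (chrM:7912-7969, plus strand): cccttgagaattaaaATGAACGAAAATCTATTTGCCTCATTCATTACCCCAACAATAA
mt-Atp6 start (chrM:7927-7984, plus strand): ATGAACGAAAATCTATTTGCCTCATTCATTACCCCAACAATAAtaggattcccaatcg
mt-Nd4l end (chrM:10152-10173, plus strand): tctcaacctactacaATGCTAA
mt-Nd4 start (chrM:10167-10188, plus strand): ATGCTAAaaattattcttccct

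The nuclear genome holds a stretch of mitochondrial sequence on chromosome 1, annotated as pseudogenes. The first 40 bases of mt-Co2 and of its pseudogene Gm28661 are printed from a pair that is identical over 681 bases. The windows of mt-Co1 and Gm29216 show the single base by which that pair differs over its aligned part, in capitals. The substitution is A1066T, with positions counted from the first base of mt-Co1.
mt-Co2 (chrM:7013-7052, plus strand): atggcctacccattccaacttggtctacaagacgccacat
Gm28661 (chr1:24615526-24615565, minus strand): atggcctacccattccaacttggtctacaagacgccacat
mt-Co1 (chrM:6390-6413, plus strand): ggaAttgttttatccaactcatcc
Gm29216 (chr1:24616165-24616188, minus strand): ggaTttgttttatccaactcatcc

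Levels are given as CPM, reads per 1000000 reads on annotated genes of the same library, and as CPM per kb of annotated transcript where genes are compared with each other. A gene with 0 reads may hold up to 3, which comes to 3.23 CPM for replicate 1 and 2.30 for replicate 2. Markers of the adrenal gland were present, beside those of other tissues. All 5 cortex markers and all 5 medulla markers had reads, with sums of 22850 and 16234 CPM for cortex and 11403 and 6053 CPM for medulla, replicate 1 first. Markers of liver summed to 8371 and 24027 CPM, of erythroid cells to 1329 and 4599 CPM, of skeletal muscle to 749 and 2058 CPM and of brown fat to 6354 and 7569 CPM. By the exact test described below, 4 of 5 cortex and 4 of 5 medulla markers were called lower in replicate 2. Cyp11a1 and Pnmt did not pass. All 4 liver and all 3 muscle markers were called higher in replicate 2, as were 4 of 5 erythroid markers, with Alas2 called lower (0.571-fold). Over all genes tested, 13% were called higher and 22.2% lower. Of the brown fat markers, Cox8b and Cidea were called higher and Ucp1 and Elovl3 lower. Of the 5 kidney markers, Umod, Slc34a1 and Slc12a1 were at 0 in both, Aqp2 had 5 and 5 reads and Nphs1 had 1 and 0. The part of these markers' tissues in the differences given below was not tested. In bulk tissue, fewer cells of a type and less RNA per cell cannot be told apart.

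As a group, the mitochondrial genes had a sum of 970 CPM against 1508 CPM, replicate 1 first (1239 ± 381, mean ± SD, n = 2). More than their sum, their mixture differed. Complex IV genes gave 65.4% of mitochondrial reads in replicate 1 (62.2 to 68.6%) and 40.1% in replicate 2 (38.0 to 42.3%). The rRNA genes gave 1.33% (0.691 to 2.32%) and 19.5% (17.8 to 21.4%). These intervals do not overlap. Complex III gave 11.1% (9.13 to 13.3%) and 18.4% (16.7 to 20.1%), again with no overlap, and complex V was at 1.78% (1.02 to 2.87%) and 3.56% (2.79 to 4.48%), where the intervals meet. Complex I, with 19.1% (16.6 to 21.8%) and 16.4% (14.8 to 18.1%), and the tRNA genes, with 1.22% (0.612 to 2.18%) and 2.03% (1.46 to 2.76%), overlapped. These are shares, and one can fall with little change in level. Complex IV summed to 635 and 605 CPM (0.954-fold), while the rRNA genes summed to 12.9 and 295 CPM. Without mt-Co1, the other 36 genes summed to 373 and 1023 CPM, 2.74-fold higher in replicate 2. These sums and shares leave out reads placed on nuclear copies of the genes, given further on.

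**Figure D1:**
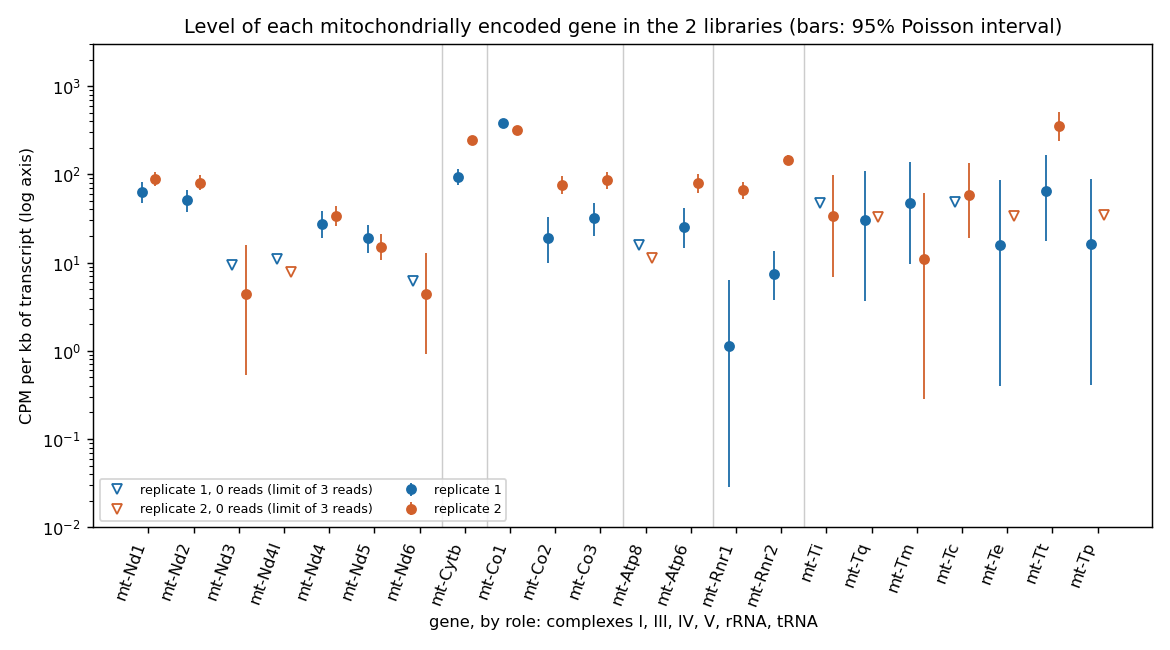
Level of each protein and rRNA gene, and of each tRNA gene with a read, as CPM per kb of transcript on a log axis, with replicate 1 in blue and replicate 2 in orange. Bars are exact 95% Poisson intervals and open triangles mark the limit of 3 reads for genes with 0 reads. mt-Co1 lies at 386 and 314 CPM per kb, while mt-Rnr1 lies at 1.13 and 65.9. Reads placed on nuclear copies are not included.

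Per kb, mt-Co1 was the highest gene of replicate 1 with 386 CPM per kb (355 to 420), with no overlap with mt-Cytb, the next, at 94.2 (76.6 to 115). In replicate 2, mt-Tt at 355 (241 to 504) and mt-Co1 at 314 (290 to 340) overlapped and stood first, and mt-Cytb followed at 242 (218 to 268). The place of mt-Tt comes from division by its 67 bases, which raises short genes. Without that division it had 23.8 CPM in replicate 2, against 486 CPM for mt-Co1. mt-Rnr2 was the fourth in replicate 2 with 146 CPM per kb and the fifteenth of the 16 genes with reads in replicate 1 with 7.49. This order leaves out reads placed on nuclear copies, given further on. With them mt-Atp6, mt-Co2 and mt-Co3 had 116, 112 and 124 CPM in replicate 2, in place of 53.7, 52.2 and 67.5. All 3 would then stand above mt-Rnr2 per kb in that library. Over the 15 protein and rRNA genes the rank correlation of levels per kb between libraries was 0.847, a description across genes that share the same libraries and that are not independent.

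Of the 37 genes, 12 had the 10 or more reads over both libraries needed for a test, and 8 of these were higher in replicate 2, 1 was lower and 3 did not pass. Over all 11650 genes tested the same way, 13% were called higher, 22.2% lower and 35.1% in either direction. The median log2 ratio, replicate 2 over replicate 1, was 1.39 for the 12 mitochondrial genes and -0.25 for all genes tested. The tests were repeated with other scalings, other filters and other ways of counting, and the members' counts stand beside those of all genes in each. With TMM factors 9 genes were higher and 0 lower, where 16.7% and 11.8% of all genes were, and with DESeq2 size factors 9 and 0, where 17.4% and 11.1% were. Per ERCC read 7 were higher and 2 lower, where 6.12% and 54.1% of all genes were. With Known models alone 9 and 0 were called, beside 13.6% and 25.5% of all genes, and without Genomic models 8 and 1, beside 13.3% and 23.6%. With no minimum 8 and 1 were called, beside 7.54% and 12.6%, and with a minimum of 50 reads 7 and 1, beside 18.5% and 34.3%. Against the ratio expected from length 3 and 0 were called, beside 12.9% and 11% of all genes, and with pseudogene reads added 8 and 0, beside 12.9% and 22.2%. Higher calls outnumbered lower ones among the mitochondrial genes in each of these. Each test of the first count was a two-sided Fisher's exact test with Benjamini-Hochberg adjustment over all genes tested, at a threshold of 0.05.

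Complex I, NADH dehydrogenase, takes 7 of its subunits from mitochondrial DNA. mt-Nd1 had 56 reads in replicate 1 and 111 in replicate 2 (60.4 and 85.2 CPM, 1.41-fold, 95% interval 1.01 to 1.98) and did not pass the exact test (adjusted p = 0.0991). mt-Nd2 had 49 and 109 reads (52.8 and 83.6 CPM) and was 1.58-fold higher in replicate 2 (1.12 to 2.27, adjusted p = 0.0248 by the exact test). These membrane-arm subunits were the highest of complex I per kb in both libraries. mt-Nd4 had 35 and 61 reads (37.7 and 46.8 CPM) and mt-Nd5 32 and 36 (34.5 and 27.6 CPM), and neither passed (adjusted p = 0.515 and 0.553, exact tests). Their ratios were 1.24 (0.806 to 1.94) and 0.801 (0.484 to 1.33). The remaining 3 subunits were near or below what the depth could show: mt-Nd3 had 0 and 2 reads, mt-Nd6 0 and 3, and mt-Nd4l 0 in both. mt-Nd6 is the only protein gene on the minus strand, at chrM:13552-14070, and its transcript is 28.1% G and 5.97% C where the 12 plus-strand protein genes are 5.88 to 16.1% G and 22.1 to 30.0% C. Altogether the 9 genes on the minus strand gave 4 and 8 reads.

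Complex III, the cytochrome bc1 complex, has 1 mitochondrial gene, mt-Cytb, its cytochrome b subunit. It had 100 and 361 reads, or 108 and 277 CPM (192 ± 120). The 2.57-fold higher level in replicate 2 (2.05 to 3.24) passed the exact test (adjusted p = 9.19e-18). The excess stayed past the threshold under every scaling and filter run, with log2 ratios of 0.64 to 1.63 against 1.36 as first counted.

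Complex IV, cytochrome c oxidase, takes its 3 core subunits from mitochondrial DNA, and their calls differed as first counted. mt-Co1, the subunit that holds the oxygen-reducing centre, had 554 and 633 reads (597 and 486 CPM, 541 ± 78.8) and ranked 246 among all genes by mean CPM. It was the only mitochondrial gene called lower in replicate 2, at 0.813-fold (0.725 to 0.913, adjusted p = 0.00205, exact test). That call was lost with TMM scaling (log2 ratio -0.05, adjusted p = 0.712), DESeq2 size factors (-0.02, 0.913), Known models alone (-0.19, 0.0630), the ratio expected from length (-0.16, 0.174) and the pseudogene reads added (-0.13, 0.227), all by the exact tests. Per ERCC read it held at -1.02 (adjusted p = 4.10e-31, exact test). mt-Co2, which receives electrons from cytochrome c, had 12 and 68 reads (12.9 and 52.2 CPM) and was 4.03-fold higher in replicate 2 (2.17 to 8.19, adjusted p = 5.26e-06, exact test). mt-Co3 had 23 and 88 reads (24.8 and 67.5 CPM) and was 2.72-fold higher (1.71 to 4.52, adjusted p = 3.62e-05, exact test). The calls of mt-Co2 and mt-Co3 held under each scaling by library factors but not against the ratio expected from length, given further on.

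Complex V, the ATP synthase, has mt-Atp6 and mt-Atp8, parts of its membrane-embedded proton channel and its support. mt-Atp6 had 16 and 70 reads (17.2 and 53.7 CPM) and was 3.11-fold higher in replicate 2 (1.79 to 5.75, adjusted p = 6.39e-05, exact test). mt-Atp8, which shares the 43 bases printed above, had 0 reads in both libraries. The pair mt-Nd4l and mt-Nd4 had the same form, with 0 reads in both for the first gene and 35 and 61 for the second. In both pairs the reads went to the longer, downstream gene. Since each read is given to 1 model, 0 reads here do not show that mt-Atp8 and mt-Nd4l sequence was absent from the reads.

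The rRNAs of the mitochondrial ribosome had the largest ratios of the 12 genes tested. mt-Rnr1, the small-subunit rRNA (chrM:70-1024), had 1 read in replicate 1 and 82 in replicate 2, or 1.08 and 62.9 CPM, a ratio of 58.4 with a counting interval of 10.2 to 2334 (adjusted p = 1.27e-16, exact test). mt-Rnr2, the large-subunit rRNA (chrM:1094-2675), had 11 and 302 reads, or 11.9 and 232 CPM, a ratio of 19.5 (10.8 to 39.6, adjusted p = 1.97e-53, exact test). Both stayed higher in replicate 2 under all settings run, at log2 ratios of 4.57 to 5.57 for mt-Rnr1 and 3.51 to 4.50 for mt-Rnr2. Together they gave 12 and 384 reads.

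The tRNA genes, 22 of the 37, gave few reads, and 15 of them gave none. mt-Tt, the tRNA for threonine, had 4 reads in replicate 1 and 31 in replicate 2 (4.31 and 23.8 CPM, 5.52-fold, 1.95 to 21.5) and was called higher (adjusted p = 0.00109, exact test). Its 67 bases begin directly after the last T of mt-Cytb printed above. With no base to mark, the sequence is in lower case throughout.
mt-Tt (chrM:15289-15355, plus strand): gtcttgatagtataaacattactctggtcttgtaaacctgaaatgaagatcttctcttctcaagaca

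The other tRNA genes with a read had 5 or fewer in each library: mt-Tc 0 and 5, mt-Ti 0 and 3, mt-Tm 3 and 1, mt-Tq 2 and 0, and mt-Te and mt-Tp each 1 and 0. Only mt-Tt and mt-Tm had reads in both libraries. With fewer than 10 reads over both libraries, none of these was tested.

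**Figure D2:**
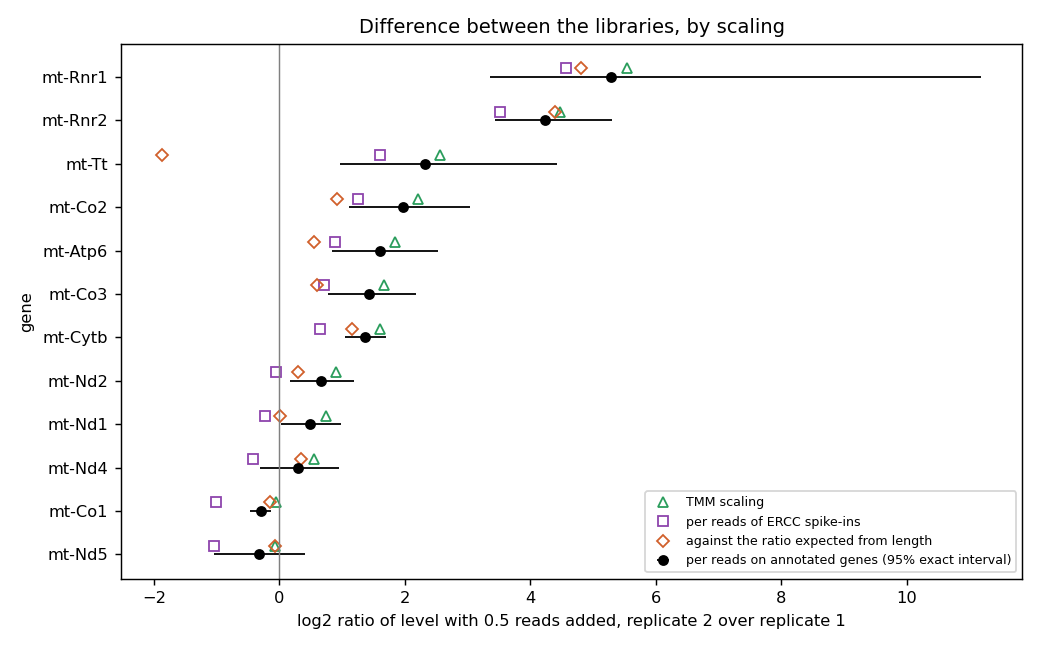
Log2 ratio of level with 0.5 reads added, replicate 2 over replicate 1, of the 12 mitochondrial genes tested. Black points with exact 95% intervals are per reads on annotated genes, and open marks give TMM scaling, ERCC scaling and the ratio after removing that expected from transcript length. Per reads on annotated genes mt-Rnr1 lies at 5.29 and mt-Rnr2 at 4.23, and mt-Co1 lies at -0.30. mt-Tt has the widest spread between marks.

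The lengths of the genes moved with part of these differences. Replicate 2 was relatively richer in short transcripts among 11019 nuclear genes, and a smooth curve through them gave the log2 ratio expected at each length: 1.05 for mt-Co2 and mt-Atp6, 0.82 for mt-Co3, 0.48 for mt-Nd1, 0.35 for mt-Nd2, 0.20 for mt-Cytb, -0.14 for mt-Co1 and -0.16 for mt-Rnr2. Against the expected ratio, 3 of the 8 genes called higher stayed so (exact binomial test, adjusted over all genes), namely mt-Cytb at 1.16, mt-Rnr1 at 4.80 and mt-Rnr2 at 4.38. mt-Co2 (0.92, adjusted p = 0.0995), mt-Co3 (0.60, 0.199), mt-Atp6 (0.55, 0.359) and mt-Nd2 (0.30, 0.453) did not, by the exact test. mt-Tt turned to -1.87, where the curve rests on 8 nuclear genes of up to 100 bases. Per ERCC read, every log2 ratio fell by 0.72, mt-Nd1 came to -0.23, mt-Nd2 to -0.06 and mt-Nd4 to -0.42, and mt-Nd5 was called lower (-1.04, adjusted p = 0.00728, exact test). TMM and DESeq2 scaling instead moved every log2 ratio up by 0.24 and 0.28.

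Every read on the mitochondrial genes was on the annotated model, the class called Known, with 900 of 900 in replicate 1 (99.6 to 100%) and 1966 of 1966 in replicate 2 (99.8 to 100%). Each of the 37 genes has 1 transcript with 1 exon and no intron. Nuclear genes that likewise have only single-exon transcripts had 98.7% Known reads in both libraries (98.5 to 98.8% and 98.6 to 98.8%), and other nuclear genes 79.4% and 73.1%. The mitochondrial interval lay above that of the single-exon nuclear genes in both libraries. A Known model carries the annotated ends, so where reads began and ended within a gene cannot be seen from these files.

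The nuclear copy on chromosome 1 spans 4663 bases at chr1:24611535-24616197 on the minus strand and is annotated as 7 pseudogenes. These pseudogenes held 58 reads in replicate 1 and 316 in replicate 2 (62.5 and 242 CPM), 6.05% and 13.8% of reads on mitochondrial genes and pseudogenes together. Not counted here, an unannotated model in the same span held 17 reads in replicate 1, and 2 antisense models held 1 read each in replicate 2. Gm28661, identical to mt-Co2 over 681 bases, took 16 and 78 reads. This was 57.1% (37.2 to 75.5%) and 53.4% (45.0 to 61.7%) of the reads of the pair, so slightly more reads were placed on the pseudogene than on the gene in each library. Gm10925, identical to mt-Atp6 over 678 bases, took 24 and 81 reads, a share of 60.0% (43.3 to 75.1%) and 53.6% (45.4 to 61.8%). Gm28437, identical to mt-Co3 over 783 bases, took 18 and 73 reads, a share of 43.9% (28.5 to 60.3%) and 45.3% (37.5 to 53.4%). In these 3 pairs the shares of the libraries overlapped, and the transcript sequence cannot tell gene from copy.

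The copies were called higher in replicate 2 like their mitochondrial partners. Gm28661 was 3.47-fold (adjusted p = 4.94e-06), Gm28437 2.89-fold (1.11e-04) and Gm10925 2.40-fold (4.11e-04) higher, by the exact test over all genes. With the reads of gene and copy summed, the mean level came to 71.1 CPM for mt-Co2 against 32.6 without, 79.5 for mt-Atp6 against 35.5 and 83.9 for mt-Co3 against 46.2. The log2 ratios then were 1.87, 1.41 and 1.47, and each stayed past the threshold.

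mt-Co1 differed from these genes. Its partner Gm29216, which is 99.8% identical over 483 bases with 1 mismatch, had 0 reads in replicate 1 and 78 in replicate 2. Its share of the pair was 0% (up to 0.664%) and 11.0% (8.77 to 13.5%), and it was at least 18.5-fold higher in replicate 2 against the limit of 3 reads per library (adjusted p = 2.05e-17, exact test). The copy matches only bases 1063 to 1545 of mt-Co1, where the other 3 copies match nearly the whole gene. Its share divides by all reads of mt-Co1, so it is not on the same footing as the other 3. The remaining copies were nearly empty: Gm28438 of mt-Nd3 had 0 and 3 reads, Gm28439 of mt-Nd4 had 0 and 2 and Gm10222 of mt-Nd4l had 0 and 1. Outside chromosome 1, Gm13340, 97.6% identical to mt-Co1 over its 1545 bases, had 0 and 6 reads.

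**Figure D3:**
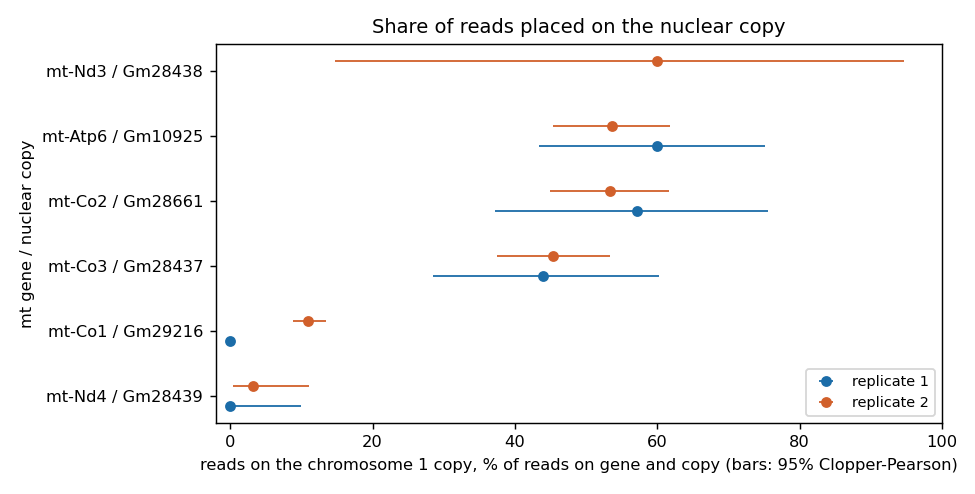
Share of reads placed on the chromosome 1 copy, in percent of the reads on gene and copy, for each pair with 5 or more reads in replicate 2. Replicate 1 is in blue, replicate 2 in orange, and bars are exact 95% Clopper-Pearson intervals. The pairs of mt-Atp6, mt-Co2 and mt-Co3 lie between 43.9% and 60.0% in both libraries, and that of mt-Co1 at 0% and 11.0%. The copy of mt-Co1 matches only bases 1063 to 1545 of that gene, so its share is not on the same footing as those of these pairs.

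Models classed as Antisense added 14 reads in replicate 1 and 109 in replicate 2. All lay opposite an annotated gene except 1 of replicate 2 (chrM:15422-15809, minus strand, 3 reads), which has no gene opposite it and touches mt-Tp on its own strand. They made up 1.53% (0.840 to 2.56%) and 5.25% (4.33 to 6.30%) of mitochondrial gene and antisense reads, and these intervals do not overlap. In the whole of each library, without ERCC spike-ins, 2.58% (2.55 to 2.61%) and 4.11% (4.08 to 4.15%) of reads were antisense. As counted, the mitochondrial share overlapped the general one in replicate 1 and lay above it in replicate 2. The shares have unlike denominators, since the general one also holds reads on unannotated loci. The 58 and 316 pseudogene reads on chromosome 1 are not in the mitochondrial denominator and would lower its share. Neither the overlap in replicate 1 nor the higher share in replicate 2 need hold with those reads added, and this was not tested. The models ran from 128 to 1582 bases in replicate 1 and from 69 to 1811 in replicate 2. Of their ends, 12 of 14 and 20 of 28 lay exactly on the first or last base of an annotated mitochondrial gene. The counts were the same within 10 and within 100 bases. As for Known models, the ends of these models need not be those of the reads. These counts therefore do not show where reads began or ended.

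The model with most reads in replicate 2, and 1 of 2 with most in replicate 1, lay opposite mt-Rnr2 and covered it exactly, from its first to its last base (chrM:1094-2675, minus strand), with 3 and 40 reads. It was the only model matched between libraries with both ends within 50 bases. Since model ends need not be read ends, neither the exact span nor this match shows a full-length antisense transcript. mt-Rnr2 itself had 11 and 302 reads, so both strands were higher in replicate 2. Also on the minus strand in replicate 2, 6 reads lay opposite the end of mt-Co1 (chrM:6372-6870) and 5 lay opposite the stretch from mt-Nd4 to mt-Nd5 (chrM:10653-11742).

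On the plus strand, replicate 2 had 17 reads opposite mt-Ta and mt-Tn (chrM:5016-5159), 5 opposite mt-Tc and mt-Ty (chrM:5192-5326), 16 opposite mt-Nd6 and mt-Te (chrM:13565-14139) and 8 opposite mt-Tp (chrM:15356-15809). These are the stretches where the annotated genes lie on the minus strand, so the reads have the direction of the neighbouring plus-strand genes. The first begins on the last base of mt-Tw, the third on the last base of mt-Nd5 and the fourth directly after mt-Tt. The fourth runs on past mt-Tp, which lies at chrM:15356-15422, and most of it has no annotated gene on either strand. Opposite mt-Nd6 lay more reads than the 3 on mt-Nd6 itself, and mt-Ta and mt-Tn had 0 of their own. In replicate 1, plus-strand models had 4 reads, 2 from mt-Ta to mt-Ty (chrM:5018-5326) and 2 opposite mt-Tp and past it (chrM:15356-16294).

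**Figure D4:**
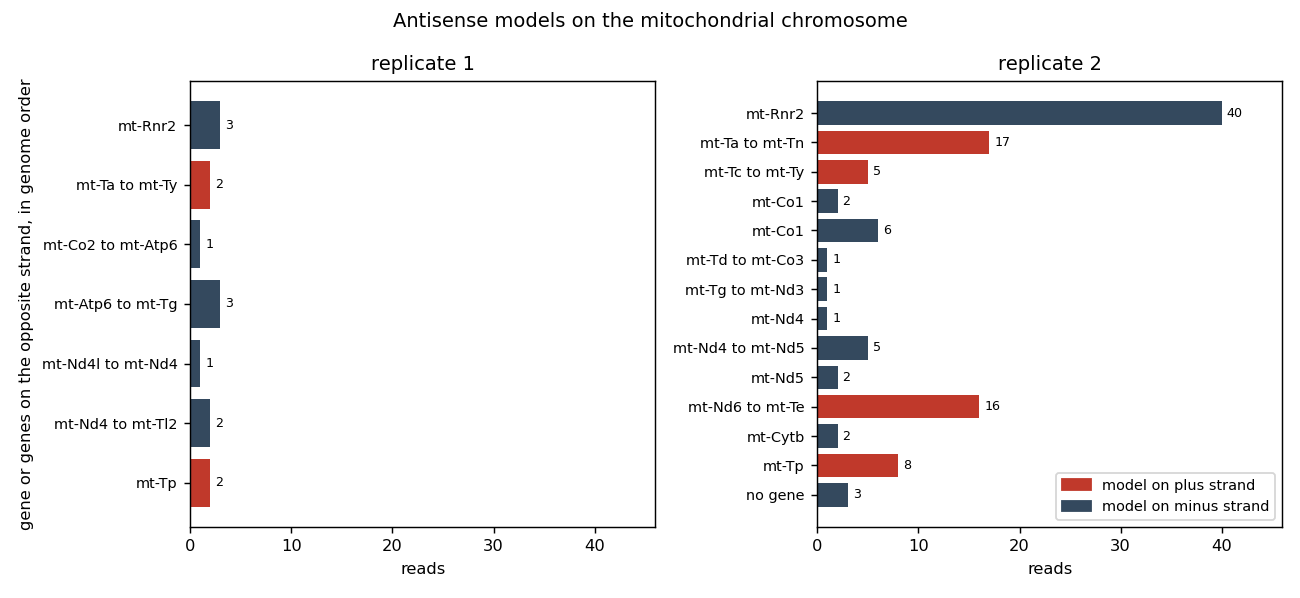
Reads of each Antisense model on the mitochondrial chromosome, in genome order from top to bottom and named by the gene or genes on the opposite strand, with replicate 1 on the left and replicate 2 on the right. Red bars are models on the plus strand and dark bars on the minus strand. The model opposite mt-Rnr2 has 3 and 40 reads, and all 7 models of replicate 1 have 3 or fewer.

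A list of 63 nuclear genes covered the copying of mitochondrial DNA, the making, processing and translation of its RNA, and a few assembly factors. Of these, 60 were tested: 3 were higher in replicate 2, 15 lower and 42 did not pass. Lower calls outnumbered higher ones over all genes too, at 22.2% against 13%. The median log2 ratio was -0.44 for the list and -0.25 for all genes tested. The 3 higher were Slirp, which binds mitochondrial mRNAs together with Lrpprc (53 and 226 reads, 3.04-fold, adjusted p = 3.27e-14), Hsd17b10, a part of the protein-only RNase P that cuts tRNA 5′ ends (141 and 310 reads, 1.57-fold, 5.22e-05), and Ssbp1, which binds single-stranded mitochondrial DNA (135 and 265 reads, 1.40-fold, 0.00594), all by the exact test. Lrpprc, named here after its values were seen, was called lower (105 and 105 reads, 0.712-fold, adjusted p = 0.0418, exact test). Also lower were Tbrg4 (92 and 36 reads, 0.279-fold, 1.24e-10) and Fastk (338 and 214 reads, 0.451-fold, 5.93e-19), both of the FASTK family of mitochondrial RNA-binding proteins. Cox10, which makes the haem of mt-Co1 (85 and 43 reads, 0.360-fold, 2.70e-07), Grsf1 of the mitochondrial RNA granules (208 and 170 reads, 0.582-fold, 1.63e-06) and the elongation factor Tsfm (164 and 170 reads, 0.738-fold, 0.0218) were lower too by the exact test. Tufm (184 and 240 reads), the ribosomal protein Mrpl12 (152 and 227) and the RNA exonuclease Rexo2 (143 and 183) did not pass.

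Nuclear subunits of the same complexes also went both ways. Of 13 tested, 4 were higher in replicate 2, 5 lower and 4 did not pass, with a median log2 ratio of -0.04, beside 13% higher, 22.2% lower and a median of -0.25 over all genes tested. Within complex IV, Cox4i1 had 1319 and 5531 reads (2.99-fold), Cox6b1 374 and 2054 (3.91-fold) and Cox5a 359 and 1192 (2.36-fold), all called higher by the exact test. Their transcripts reached 1421 and 4243, 403 and 1576, and 387 and 915 CPM. The exact test also called mt-Co2 and mt-Co3 higher, but those calls were lost against the ratio expected from length. Calls of the nuclear subunits and of the machinery list against that ratio are not given here, so the part of length in them is open. Of complex V, Atp5b was called higher (5697 and 8834 reads, 1.10-fold) and Atp5a1 lower (3634 and 3952 reads, 0.774-fold). Of complex III, where mt-Cytb was 2.57-fold higher, Uqcrc1 (0.822-fold) and Uqcrfs1 (0.790-fold) were lower and Cyc1, at 0.970-fold, did not pass. Of complex I, Ndufs1 (0.776-fold) and Ndufv1 (0.879-fold) were lower. Sdha of complex II, a complex with no mitochondrial gene, was at 0.930-fold and did not pass, as did Atp5c1 at 1.10-fold.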

How the data were processed

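The deposited tables give counts, the number of long reads the authors assigned to each transcript model of 1 library, not normalized. Other values taken from the deposited files are spliced lengths, exon numbers and 1-based positions in bases on mm10 with GENCODE M21, and models added to the annotation carry the source TALON, per the file headers. The aligner, tool versions and read filters are "not given" in the labels and file headers used here. Replicate 1 held 971827 reads and replicate 2 held 1407511, with 15215 and 35155 on ERCC spike-ins.

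Gene reads were summed over all models, without spike-ins and unannotated loci. A gene needed 10 or more reads, both libraries together, to be compared by Fisher's exact test (scipy 1.17.1) in Python 3.11.15 with pandas 2.3.3, numpy 2.4.6 and matplotlib 3.10.9, since edgeR's quasi-likelihood test needs replicates within each side. Adding 0.5 reads gave the log2 ratio; printed folds are without it. Scaled alternatives used an exact binomial test with factors from edgeR 4.0.16 or DESeq2 1.42.0 (R 4.3.3) or ERCC reads, or a lowess curve on length (statsmodels 0.14.6, span 0.3). Intervals are exact Poisson or Clopper-Pearson at 95%, and with the limit of 3 reads they cover counting error only, since reads after PCR are not independent molecules.

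Nuclear copies were sought among annotated transcripts, not the whole genome, at 95% identity over 200 bases or more (blastn 2.17.0). Planned Fisher tests of class and antisense shares were not run, and intervals are given instead. On simulated counts with this comparison's depth and 11638 genes, the test called 39 of 91 genes changed 2-fold, 75 of 94 changed 4-fold and left 11447 of 11453 unchanged genes uncalled. Those counts varied by counting error only. They do not give the rate of false calls between the real libraries, where 35.1% of genes were called. The recovery of 4-fold genes, 79.8%, fell just short of the share required beforehand, and the check was then rewritten to require unbiased ratios and few false calls, while the test itself was left as it was.

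The genes, lists and tests were chosen with earlier results of these data known. Named were all protein and rRNA genes, tRNA genes with a read, antisense models with 5 or more reads, copies with 5 or more reads, the partner subunits (1 is not reported here), and of the machinery list the 8 with the highest mean CPM and up to 3 with the largest ratio in each direction among those past the threshold. The 3 copies, the minor antisense models and the tRNA genes without reads named beyond this complete their groups.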

Additional observations from a re-analysis of the deposited data

Results flagged for a closer look

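One signal lies outside the annotated genes. In replicate 1 an unannotated model of the class Intergenic, 142 bases long on the minus strand at chr1:24615565-24615706, had 17 reads, 22.7% of the reads on the chromosome 1 copy in that library when it is counted with the pseudogenes. The class is used by no comparison above, and 17 reads exceed the 3 that a count of 0 allows. The model runs between the pseudogenes Gm28661 and Gm29216 and shares its end bases with them. Here too, model ends need not be read ends. Replicate 2 had no such model and 78 reads on Gm29216, where replicate 1 had 0. Whether the 2 libraries placed the same RNA on different models was not tested.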

How the results depend on the processing

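Against the ratio expected from length, the mitochondrial genes called higher in replicate 2 came to 3 in place of 8. The count called lower, 1, came to 0 with TMM, DESeq2, Known models alone, the length curve or the copy added, and to 2 per ERCC read. Machinery genes called higher came to 1 of 60 tested in place of 3 per ERCC read, beside 6.12% of all genes. Those called lower, 15 as first counted, came to 6 of 60 with TMM and with DESeq2, beside 11.8% and 11.1%. Per ERCC read 46 of 60 were lower, beside 54.1% of all genes, and with Known models 8 of 55, beside 25.5%. Of 13 partner subunits, those called higher came to 8 with TMM and with DESeq2 in place of 4, beside 16.7% and 17.4%. Those called lower, 5 as first counted, came to 1 with both, beside 11.8% and 11.1%, and to 10 per ERCC read, beside 54.1%. Reversed signs were mt-Nd1 at -0.23, mt-Nd2 at -0.063 and mt-Nd4 at -0.42 per ERCC read, and mt-Tt at -1.87 against length; the cause was not tested. The summed level, 1239 CPM, came to 1627 CPM with Known models, whose denominator is smaller, and to 970 or 1508 CPM with either library left out. Antisense models matched between libraries came to 2 within 200 bases and to 5 at an overlap of over 50% of the shorter model, an alternative chosen after seeing the data, in place of 1. mt-Nd1 was called higher with TMM, DESeq2 and Known models. For the 12 genes tested, dropping Genomic models or the count minimum changed no call. No paired analysis was possible because all samples form a single group. Counts under 10 reads limit 25 of the 37 genes.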
